A study of Mus musculus with 5 samples.

Results

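The genes described here are those of the mouse major histocompatibility complex (MHC, named H2 in the mouse) and of antigen processing, 49 of the 17657 genes in the deposited table. They were chosen by name: 32 rows whose symbol starts with H2-, and 17 further genes for the light chain B2m, the peptide transporter and its helpers, the immunoproteasome, the class II chaperone Cd74 and the transcriptional regulators of the MHC. Their RNA was measured by sequencing total RNA of cultured epidermal stem cells, progenitors that renew the skin's keratinocytes. The libraries were 2 of Angptl4 knockout cells (KO1 and KO2) and 3 of wild-type cells (WT1, WT2 and WT3), all of male C57BL/6 origin, with 8 weeks as the labelled time, isolated from skin and grown in the keratinocyte medium KGM2. Angptl4 encodes a secreted inhibitor of lipoprotein lipase. The knockout allele and the origin of the libraries of a group from separate animals or cultures are not given in the labels, so p-values measure the spread between these libraries, which may be technical.

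MHC class I molecules show peptides cut from proteins of the cell's own interior to CD8 T cells. The peptides are cut by the proteasome, carried into the endoplasmic reticulum by the Tap1-Tap2 transporter, trimmed, and loaded with the help of tapasin onto a heavy chain paired with B2m. Class II molecules show peptides from endosomes to CD4 T cells, are guided there by Cd74 and are loaded by H2-DM. Most nucleated cells make class I, whereas class II is made mainly by professional antigen-presenting cells and, after interferon gamma, by others such as keratinocytes. NLRC5 drives transcription of class I genes and CIITA that of class II genes. Both work through the RFX complex and NF-Y, which bind the X box and the CCAAT-containing Y box of a shared promoter module.

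The start-site regions of these genes are shown first because most of these genes, those higher in KO among them, hold the CCAAT box there. The sequences are from RefSeq on GRCm38.p6, written 5′ to 3′ on the gene's strand, and reach from 40 bases before the first CCAAT box shown to 15 after the last. A further box of H2-T22 lies upstream of its stretch and is not shown. Capitals mark the box CCAAT, which reads ATTGG on the other strand, and the letters TGATGA upstream of it.
H2-D1 (chr17:35262978-35263060, plus strand): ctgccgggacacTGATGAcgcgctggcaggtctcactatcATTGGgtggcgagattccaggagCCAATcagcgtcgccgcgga
H2-K1 (chr17:34000320-34000403, minus strand): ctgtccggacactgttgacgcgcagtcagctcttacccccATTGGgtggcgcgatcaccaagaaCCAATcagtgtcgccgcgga
H2-Q6 (chr17:35424731-35424814, plus strand): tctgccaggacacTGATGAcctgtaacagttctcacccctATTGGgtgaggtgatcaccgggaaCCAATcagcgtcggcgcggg
H2-Q7 (chr17:35439075-35439158, plus strand): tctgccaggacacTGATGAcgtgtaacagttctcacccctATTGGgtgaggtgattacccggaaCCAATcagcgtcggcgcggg
H2-T22 (chr17:36042786-36042870, minus strand): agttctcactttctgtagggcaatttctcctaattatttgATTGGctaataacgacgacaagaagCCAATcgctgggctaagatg
H2-Eb1 (chr17:34305768-34305851, plus strand): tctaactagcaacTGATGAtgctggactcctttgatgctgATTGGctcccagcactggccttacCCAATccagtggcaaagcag
H2-DMb1 (chr17:34153090-34153149, plus strand): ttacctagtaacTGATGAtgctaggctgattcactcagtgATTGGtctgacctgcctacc
B2m (chr2:122147594-122147653, plus strand): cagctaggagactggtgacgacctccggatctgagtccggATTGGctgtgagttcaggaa

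Windows of 300 bases, from 250 before to 50 after the start, were given for 35 of the 49 genes, 39 windows in all. Of the 18 windows of the 17 genes that were higher in KO, 17 (94.4%) held CCAAT on either strand, against 37.4% of all 32851 windows. The exception was Psmb8. Over all 39 windows of these genes, whether higher in KO or not, 29 (74.4%) held the box. Boxes 23 to 25 bases apart were found in 8 of the 18 windows (44.4%) and in 0.517% of all windows, and TGATGA 26 to 30 bases before ATTGG in 7 (38.9%) and in 0.094% of all. Over all 39 windows of these genes, 8 (20.5%) held the former and 7 (17.9%) the latter. Both spacings were chosen after the sequences were seen, and several windows are close copies of each other, those of Tap1 and Psmb9 overlap, and H2-K1 has more than 1 window. The interferon response core GAAANNGAA, searched on both strands, stood in 2 of the 18 windows (11.1%), those of B2m and H2-T22, against 8.56% of all windows. Only exact matches to this core were counted. The similar letters TTTCACTTCT, which it does not match, stand in the windows of H2-K1, H2-D1, H2-Q4, H2-Q6, H2-Q7 and H2-M3. They also stand in that of H2-Q10, which was not called higher, and their share of all windows was not counted. The shares of the core therefore do not cover looser forms of the element. The gamma-activated site core TTCNNNGAA also stood in 2 (11.1%), those of Psmb8 and H2-M3, against 8.30%. These matches describe letters in the windows, and binding was not measured.

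Angptl4 itself (gene 57875, GRCm38.p6 chromosome 17, 33774900 to 33781575, minus strand) had 0.83 and 1.06 CPM (counts scaled to library size) in KO1 and KO2, against 6.97, 5.76 and 4.13 CPM in WT1 to WT3, so no KO library reached the lowest WT library. The libraries held 20283067 to 20773365 rounded counts. The KO libraries differed from each other far more than the WT libraries did: the biological coefficient of variation was 28.9% in KO and 5.22% in WT. The first principal component held 72.8% of the variance and the second 18.8%. The 6 basal keratinocyte markers, which check the labelled cell type, summed, nearly all of it in the keratins Krt5 and Krt14, to 44850 and 35211 TPM (length-scaled transcript level) in KO1 and KO2, against 35181, 34591 and 35783 TPM in WT1 to WT3. Of the 6, the integrin Itgb4 was higher in KO (0.49 ± 0.10 on the log2 scale, adjusted p = 0.0171), and the integrin Itga6 (-0.91 ± 0.11, adjusted p = 0.00413) and the transcription factor Trp63 (-0.73 ± 0.10, adjusted p = 0.00518) were lower.

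Antigen presentation genes were broadly higher in KO than in WT cells. Of the 36 genes with enough counts to test, 22 were higher in KO at an adjusted p under 0.05 (61.1%; 20.4% of all 12957 tested genes were higher), 1 was lower (2.78%; 20.4% of all tested genes were lower) and 13 did not pass. Both KO libraries lay above every WT library for 28 of the 36, a pattern seen in 32.5% of all tested genes. The median change of the 36 was 1.07 on the log2 scale, against 0.02 over all tested genes. Tests are edgeR's quasi-likelihood test with Benjamini-Hochberg adjustment over all tested genes, changes are log2 of KO over WT with a standard error, and n is 2 KO and 3 WT libraries throughout. The other 13 genes held 0 to 10.9 expected counts in any library and were not tested. In bulk RNA, fewer cells of a type and less RNA per cell cannot be told apart.

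**Figure D1:**
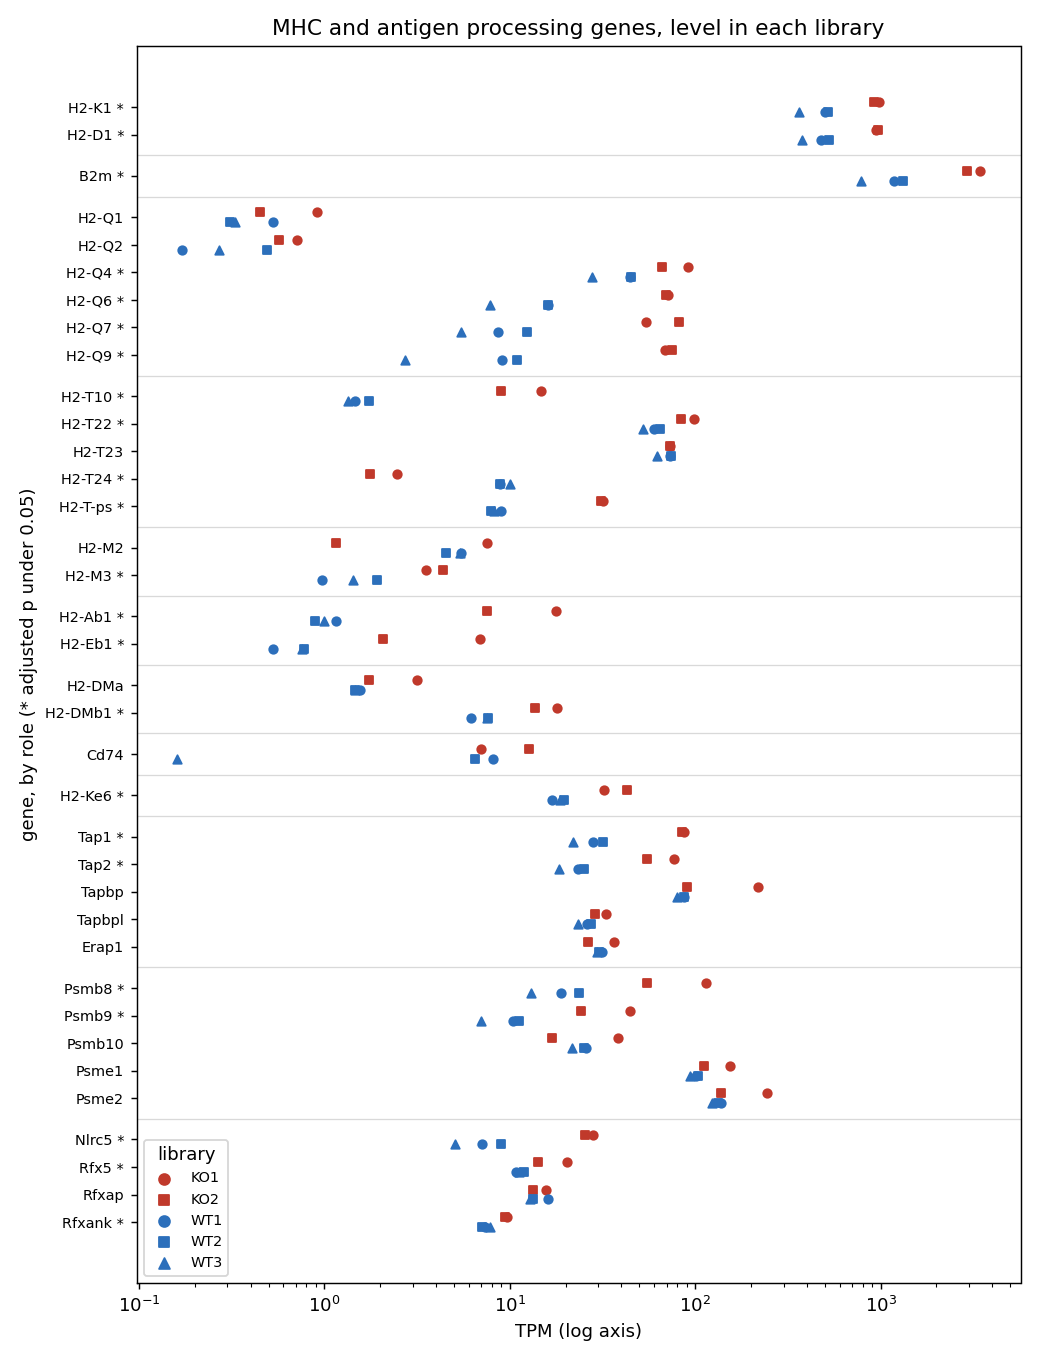
TPM of the 36 tested genes in each library on a log axis, grouped by role. KO libraries are red, WT libraries blue, symbols mark the library, and an asterisk marks an adjusted p under 0.05. B2m was the highest gene in every library, and H2-T24 is the gene with both KO libraries below all WT libraries.

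The classical class I heavy chains H2-K1 and H2-D1, which present peptides to CD8 T cells, and their light chain B2m were the most abundant of the 49 genes and all rose. H2-K1 had 977 and 925 TPM in KO1 and KO2, against 500, 522 and 364 TPM in WT1 to WT3, a change of 1.06 ± 0.17 (adjusted p = 0.00809). H2-D1 (chromosome 17, 35263094 to 35267497) had 942 and 967 TPM in KO, against 478, 526 and 378 TPM in WT (1.07 ± 0.15, adjusted p = 0.00606). For both genes the KO libraries lay close together and well above WT1 and WT2, and WT3 was the lowest.

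B2m (chromosome 2, 122147687 to 122153082) had 3449 and 2940 TPM in KO, against 1175, 1318 and 785 TPM in WT, a change of 1.57 ± 0.23 (adjusted p = 0.00669), or 2.97-fold. The calls of H2-K1 and B2m were lost when limma-voom estimated the spread of each group apart (adjusted p 0.0684 and 0.058, the highest of 16 alternatives; the lowest were 6.44e-07 and 1.18e-08), where that of H2-D1 held. The light chain stood further above WT than the heavy chains. The TPM of H2-K1 and H2-D1 together, per unit of B2m, were 0.556 and 0.643 in KO, against 0.832, 0.796 and 0.945 in WT, without overlap, a difference of -0.52 on the log2 scale. An exact permutation test gave p = 0.2, two-sided, which is the smallest value that 2 against 3 libraries allow.

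Among the class Ib genes of the H2-Q region, the Qa-2 genes stood out by size. H2-Q7 and H2-Q9, which encode the surface molecule Qa-2, had 53.9 and 81.4 TPM and 69.1 and 74.8 TPM in KO1 and KO2, against 8.59, 12.3 and 5.47 TPM and 9.11, 10.9 and 2.73 TPM in WT1 to WT3. The changes were 2.96 ± 0.36 for H2-Q7 and 3.27 ± 0.50 for H2-Q9 (adjusted p 0.00421 and 0.00728). H2-Q6 had 71.5 and 69.5 TPM in KO and 16.1, 16.1 and 7.78 TPM in WT (2.43 ± 0.31, adjusted p = 0.00471). These genes share sequence: 32.0% of the distinct 50-base words of H2-Q6 and 26.4% of those of H2-Q7 occur in other genes of the GENCODE annotation. H2-Q9 was not found by name in that annotation, so words shared with it are not counted in these shares. Reads may therefore have been divided among them by estimate, and the split between single genes is uncertain.

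With the counts of H2-Q6, H2-Q7 and H2-Q9 summed before the fit, the group had 164 and 188 CPM in KO, against 29.9, 32.9 and 13.8 CPM in WT (2.79 ± 0.36, adjusted p = 0.00483). H2-Q4 had 91.9 and 66.0 TPM in KO and 44.3, 44.9 and 27.8 TPM in WT (1.04 ± 0.25, adjusted p = 0.0255). Its call was lost when any 1 WT library was left out (adjusted p over 16 alternatives 0.00136 to 0.101). H2-Q1 and H2-Q2 did not exceed 0.91 TPM in any library and did not pass, with changes of 1.11 and 1.08 (adjusted p 0.132 and 0.144). All 7 H2-Q genes together made up 288 and 293 TPM in KO, against 79.1, 85.5 and 44.5 TPM in WT.

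The H2-T genes did not move together. H2-T22, a class Ib gene whose product is bound by some gamma delta T cells, had 99.1 and 84.0 TPM in KO, against 60.03, 64.4 and 52.1 TPM in WT (0.73 ± 0.12, adjusted p = 0.00839). Its close relative H2-T10 had 14.7 and 8.95 TPM in KO and 1.46, 1.75 and 1.34 TPM in WT (3.0 ± 0.26, adjusted p = 0.00253). The pseudogene H2-T-ps had 31.7 and 31.1 TPM in KO and 8.99, 7.91 and 8.21 TPM in WT (1.90 ± 0.12, adjusted p = 0.00147). H2-T10 shares 31.7% of its 50-base words with H2-T22, and the summed counts of these 3 genes changed by 1.05 ± 0.12 (adjusted p = 0.00392), a value that H2-T22 dominates.

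H2-T23, which encodes Qa-1, the ligand of the CD94-NKG2 receptors of natural killer cells, had 73.3 and 72.7 TPM in KO and 72.7, 74.0 and 62.1 TPM in WT (0.09 ± 0.10, adjusted p = 0.497). Its groups overlapped. H2-T24 was the 1 tested gene of the 36 that fell. It had 2.47 and 1.77 TPM in KO, against 8.87, 8.88 and 10.07 TPM in WT, a change of -2.12 ± 0.20 (adjusted p = 0.00266), and it shares 3.17% of its 50-base words with other genes. H2-T24 was lower in KO, past the threshold, in all 16 alternatives. Taken as a sum, the 8 H2-T genes had 222 and 200 TPM in KO, against 152, 157 and 134 TPM in WT.

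Of the H2-M class Ib genes, H2-M3, which presents N-formylated peptides, had 3.53 and 4.38 TPM in KO and 0.97, 1.93 and 1.43 TPM in WT (1.48 ± 0.33, adjusted p = 0.0206). Its call was lost without WT1 or WT3 (adjusted p over 16 alternatives 0.00344 to 0.0794). H2-M2 had 7.53 TPM in KO1 and 1.15 TPM in KO2, against 5.48, 4.51 and 5.41 TPM in WT (-0.22 ± 0.70, adjusted p = 0.821). The KO libraries fell on opposite sides of WT: the change was 0.59 without KO2 and -2.15 without KO1. Those fits take the spread from WT libraries alone. All 23 class I heavy chain rows summed to 2440 and 2390 TPM in KO, against 1217, 1298 and 927 TPM in WT.

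Both tested class II chains were higher in KO, at levels far below those of class I. H2-Ab1, the beta chain of the I-A molecule (chromosome 17, 34263227 to 34269418), had 17.8 and 7.50 TPM in KO1 and KO2, against 1.16, 0.89 and 0.99 TPM in WT (3.63 ± 0.44, adjusted p = 0.00419). H2-Eb1, the beta chain of I-E, had 6.91 and 2.07 TPM in KO, against 0.53, 0.78 and 0.76 TPM in WT (2.73 ± 0.57, adjusted p = 0.0171). Both KO libraries were above all WT libraries, and KO1 was the higher of the KO libraries. Without KO1 the changes were 2.87 for H2-Ab1 and 1.60 for H2-Eb1. That of H2-Eb1 was 3.36 without KO2, and its call was lost when any 1 WT library was left out. The highest adjusted p over 16 alternatives was 0.0337 for H2-Ab1 and 0.0761 for H2-Eb1.

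H2-Aa, the alpha chain that pairs with H2-Ab1, had 0 counts in both KO libraries and 1, 6 and 0 counts in WT1 to WT3. A count of 0 allows up to 3 counts, or 0.147 and 0.145 CPM in KO1 and KO2, from counting error alone. H2-Ab1 had 216 and 92 counts in those same libraries, against 14, 10.7 and 12 counts in WT1 to WT3. H2-Ea, the other alpha chain, also had 0 counts in both KO libraries and 4, 3 and 0 in WT. Whether the cells carry an intact H2-Ea gene was not tested. The rise on the class II side was thus measured in beta chains, with no detectable alpha chain in KO at this depth. H2-DMb1, a subunit of the class II loading factor H2-DM, had 17.99 and 13.7 TPM in KO and 6.21, 7.66 and 7.56 TPM in WT (1.17 ± 0.19, adjusted p = 0.00812). It shares 22.7% of its 50-base words with H2-DMb2.

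Its partner H2-DMa had 3.16 and 1.73 TPM in KO and 1.56, 1.47 and 1.47 TPM in WT and did not pass (0.68 ± 0.25, adjusted p = 0.0811). Cd74, the invariant chain, had 6.97 and 12.7 TPM in KO, against 8.11, 6.46 and 0.16 TPM in WT (1.02 ± 1.04, adjusted p = 0.463). The low value was WT3, with 2 counts against 101 in WT1, and KO1 lay within the WT range. H2-Ke6, a row of the rule that encodes a steroid dehydrogenase (Hsd17b8) and takes no known part in antigen presentation, had 32.4 and 43.1 TPM in KO and 16.8, 19.7 and 18.7 TPM in WT (1.06 ± 0.16, adjusted p = 0.00687). It shares 70.5% of its 50-base words with the overlapping annotation Gm20427.

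**Figure D2:**
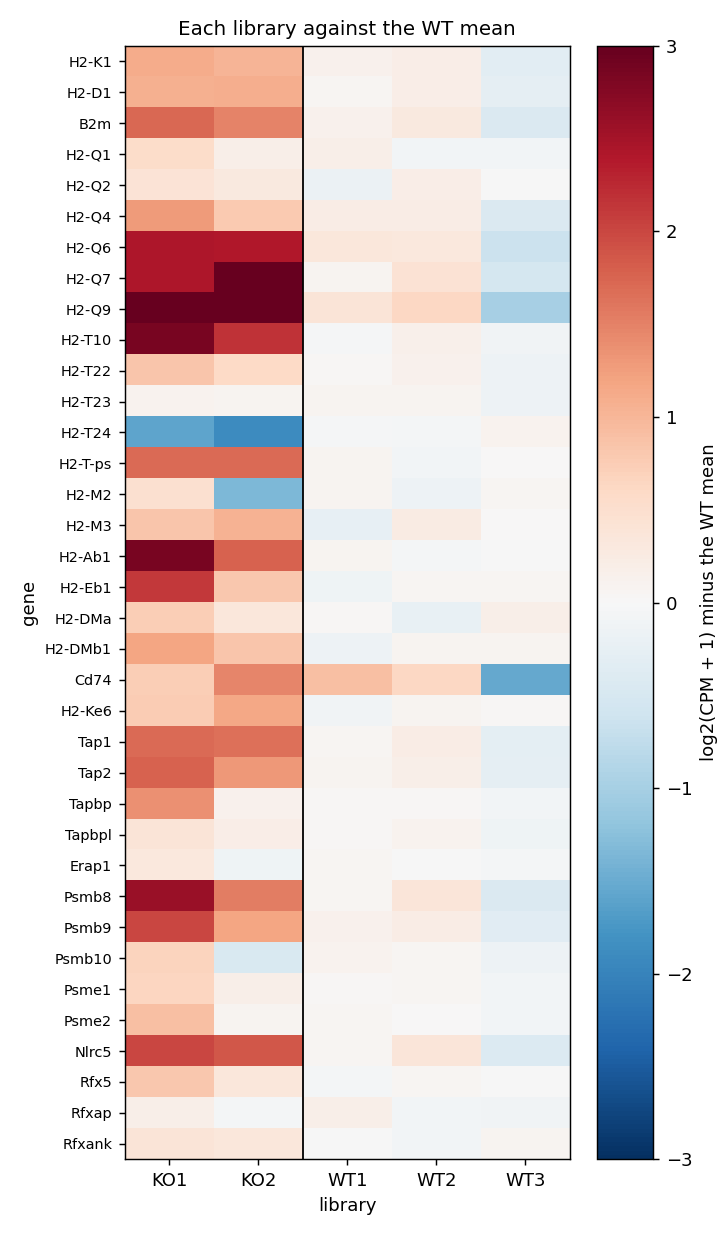
Color gives log2(CPM + 1) of each library minus the WT mean for the 36 tested genes, with rows by role and the KO libraries left of the line. H2-Q6, H2-Q7, H2-Q9, H2-T10 and H2-Ab1 show the strongest red in KO, H2-T24 is blue in both KO libraries, and WT3 is paler or blue in most class I rows.

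Both subunits of the peptide transporter rose, and none of its 3 helpers on the list passed the test. Tap1 (chromosome 17, 34187556 to 34197225) had 87.0 and 85.0 TPM in KO, against 28.2, 31.6 and 21.9 TPM in WT (1.68 ± 0.15, adjusted p = 0.00264). Tap2 had 76.5 and 55.1 TPM in KO and 23.4, 25.3 and 18.4 TPM in WT (1.58 ± 0.19, adjusted p = 0.0042). Each KO library was above every WT library for both genes, in which 0.442 and 0.655% of the 50-base words are shared with other genes, and both were called in all 16 alternatives.

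Tapasin, Tapbp, which bridges the transporter and the empty class I molecule, had 217 TPM in KO1 and 90.5 TPM in KO2, against 87.1, 86.5 and 80.0 TPM in WT (0.88 ± 0.35, adjusted p = 0.0944). KO2 lay just above WT and KO1 far above it. Tapbpl, a tapasin relative that edits peptides, had 33.2 and 28.9 TPM in KO and 26.02, 27.6 and 23.3 TPM in WT (0.30 ± 0.11, adjusted p = 0.0875). Erap1, the peptidase that trims peptides in the endoplasmic reticulum, had 36.3 and 26.5 TPM in KO, on either side of its 31.4, 30.4 and 29.4 TPM in WT (0.10 ± 0.14, adjusted p = 0.588).

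The immunoproteasome is a form of the proteasome in which Psmb8, Psmb9 and Psmb10 take the places of the constitutive catalytic subunits Psmb5, Psmb6 and Psmb7. Psmb8 had 115 and 54.7 TPM in KO, against 19.0, 23.7 and 13.0 TPM in WT (2.22 ± 0.38, adjusted p = 0.0098). Psmb9 had 44.3 and 24.1 TPM in KO and 10.45, 11.2 and 7.0 TPM in WT (1.87 ± 0.34, adjusted p = 0.011). KO1 was well above KO2 for both, and each call was lost without WT1 (adjusted p 0.0533 and 0.0531, over 16 alternatives 5.55e-07 to 0.0533 for Psmb8 and 1.39e-05 to 0.0531 for Psmb9). The change of Psmb8 was 1.57 without KO1.

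Psmb10 did not follow: it had 38.4 TPM in KO1 and 16.9 TPM in KO2, against 25.9, 25.1 and 21.7 TPM in WT (0.21 ± 0.34, adjusted p = 0.645). KO1 lay above and KO2 below all WT libraries. The change was 0.70 without KO2 and -0.51 without KO1, in fits that take the spread from WT libraries alone. The proteasome activator subunits Psme1 and Psme2 had changes of 0.44 ± 0.15 and 0.56 ± 0.24 (adjusted p 0.0617 and 0.117). Psme2 had 243 TPM in KO1 and 137 TPM in KO2, against 137, 133 and 123 TPM in WT, so KO2 lay at the WT level.

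Of the constitutive partners, Psmb6 and Psmb7 fell and Psmb5 did not pass. Psmb7 had 196 and 177 TPM in KO, against 276, 268 and 271 TPM in WT (-0.51 ± 0.08, adjusted p = 0.00728), and Psmb6 changed by -0.33 ± 0.09 (adjusted p = 0.0413). Psmb5 had 226 and 224 TPM in KO and 269, 253 and 274 TPM in WT (-0.22 ± 0.07, adjusted p = 0.0584). Psmb8 per unit of Psmb5 was 0.507 and 0.244 in KO, against 0.0704, 0.0935 and 0.0473 in WT, a difference of 2.38 on the log2 scale. Psmb9 per unit of Psmb6 was 0.1802 and 0.113 in KO and 0.0352, 0.0409 and 0.0230 in WT, a difference of 2.15. For Psmb10 over Psmb7 the ratios were 0.195 and 0.0955 in KO and 0.0938, 0.0935 and 0.0803 in WT, a difference of 0.62. None of these ratios overlapped between groups, and each exact permutation test gave p = 0.2, the smallest value possible. The constitutive subunit was the more abundant in every pair and library.

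**Figure D3:**
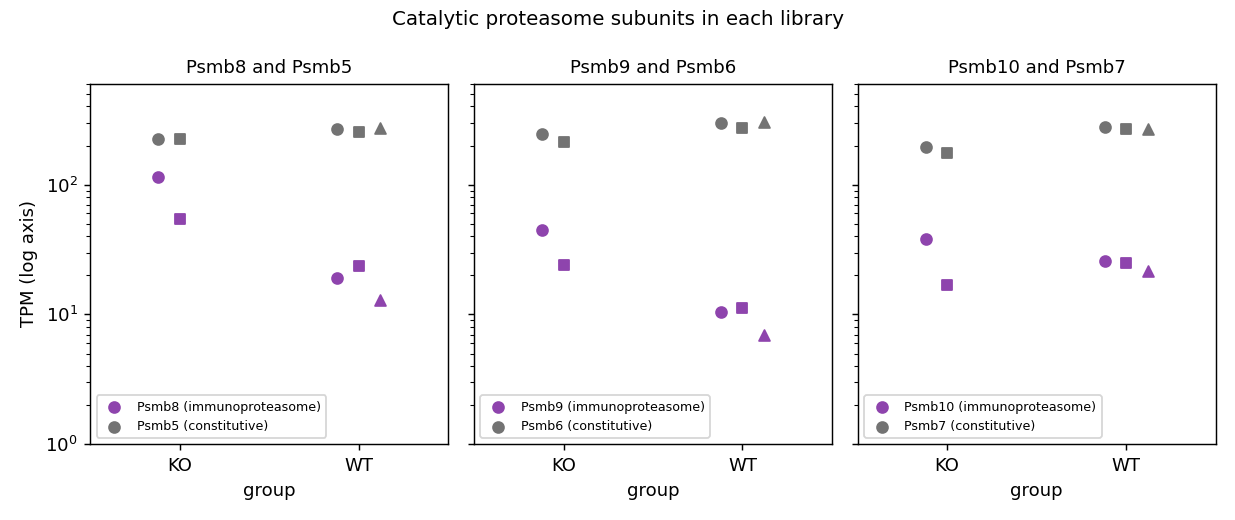
TPM on a log axis of each immunoproteasome subunit (purple) and the constitutive subunit whose place it takes (grey), KO left and WT right. Circles, squares and triangles are libraries 1, 2 and 3 of a group. Psmb8 reached 115 TPM in KO1, or 0.507 per unit of Psmb5, and Psmb10 was above the WT points in KO1 and below them in KO2.

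Of the wider list of 11 constitutive proteasome genes, 7 were lower in KO (63.6%) and 0 higher, beside 20.4% of all tested genes in each direction, with a median of -0.36 beside 0.02. Psmf1, an inhibitor of the proteasome, changed by -0.42 ± 0.07 (adjusted p = 0.0095) and the core subunit Psma1 by -0.57 ± 0.10 (adjusted p = 0.0111).

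Among the regulators, Nlrc5, the class I transactivator (chromosome 8, 94422900 to 94527272), was higher and Ciita was near 0. Nlrc5 had 28.1 and 25.4 TPM in KO, against 7.08, 8.95 and 5.03 TPM in WT (1.93 ± 0.23, adjusted p = 0.00412), or 3.82-fold, with no overlap, and was called in all 16 alternatives. None of its 50-base words is shared with another gene. Ciita had 5.36 and 5.31 expected counts in KO and 4.24, 2.0 and 4.41 in WT, 0.06 TPM or less in every library, and was too low to test.

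The RFX subunits had smaller changes. Rfx5 had 20.3 and 14.3 TPM in KO, against 10.8, 11.9 and 11.2 TPM in WT (0.62 ± 0.16, adjusted p = 0.0288). Rfxank had 9.70 and 9.37 TPM in KO and 7.33, 7.04 and 7.84 TPM in WT (0.39 ± 0.10, adjusted p = 0.0288). Both calls were lost when any 1 WT library was left out (highest adjusted p over 16 alternatives 0.118 for Rfx5 and 0.165 for Rfxank). Rfxap had 15.6 and 13.3 TPM in KO and 16.0, 13.3 and 12.8 TPM in WT (0.06 ± 0.14, adjusted p = 0.751).

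The libraries of a group were ordered alike across many of these genes. KO1 was above KO2 for 30 of the 36 tested genes (83.3%), against 49.8% of all tested genes, and WT3 was the lowest WT library for 23 (63.9%), against 35.3%. Without KO2, 31 genes were called higher: beside the 22, Tapbp, Tapbpl, Erap1, Psmb10, Psme1, Psme2, H2-DMa, H2-Q1 and H2-M2 passed. Leaving out a WT library gave 15 (WT1), 18 (WT2) and 17 (WT3). The number of all genes called, in either direction, moved with these counts: it was 5286 with all libraries, 8068 without KO2, and 1957, 2282 and 2244 without WT1, WT2 and WT3. The genes H2-D1, H2-Q6, H2-Q7, H2-Q9, H2-T10, H2-T-ps, H2-Ab1, H2-Ke6, Tap1, Tap2 and Nlrc5, 11 of the 22, were higher past the threshold in all 16 alternatives.

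Most of these genes lie on chromosome 17 in the MHC, next to Angptl4. Within 10 Mb of Angptl4 were 30 of the 49, of which 21 were tested, and these lay 0.146 to 3.704 Mb away, all on the side of higher coordinates. Of the 21, 15 were higher and 1 lower, with a median change of 1.17. Among the 293 other tested genes of the window, 22.2% were higher and 12.6% lower, with a median of 0.10. Among the 88 other tested genes that lie in the same stretch as the 21, a stretch chosen after the values were seen, 23.9% were higher and 9.09% lower, with a median of 0.11.

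Outside the window, 4 of 11 tested genes were higher (B2m, Nlrc5, Rfx5 and Rfxank; 36.4%) and 0 lower, with a median of 0.44, beside 20.2% higher and 20.7% lower among the 12601 other tested genes there. Over the alternatives that kept both KO libraries, the number called outside the window ranged from 2 to 5. A further 7 genes, including H2-K1, H2-Q9, H2-T10 and H2-T23, are listed in the table on scaffolds or with a start and end that contradict each other, and 3 of the 4 tested ones were higher. With the positions of the RefSeq table of the same build, 18 called genes lay within 10 Mb. Position beside the targeted gene and membership of the MHC cannot be told apart for the genes in the window.

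**Figure D4:**
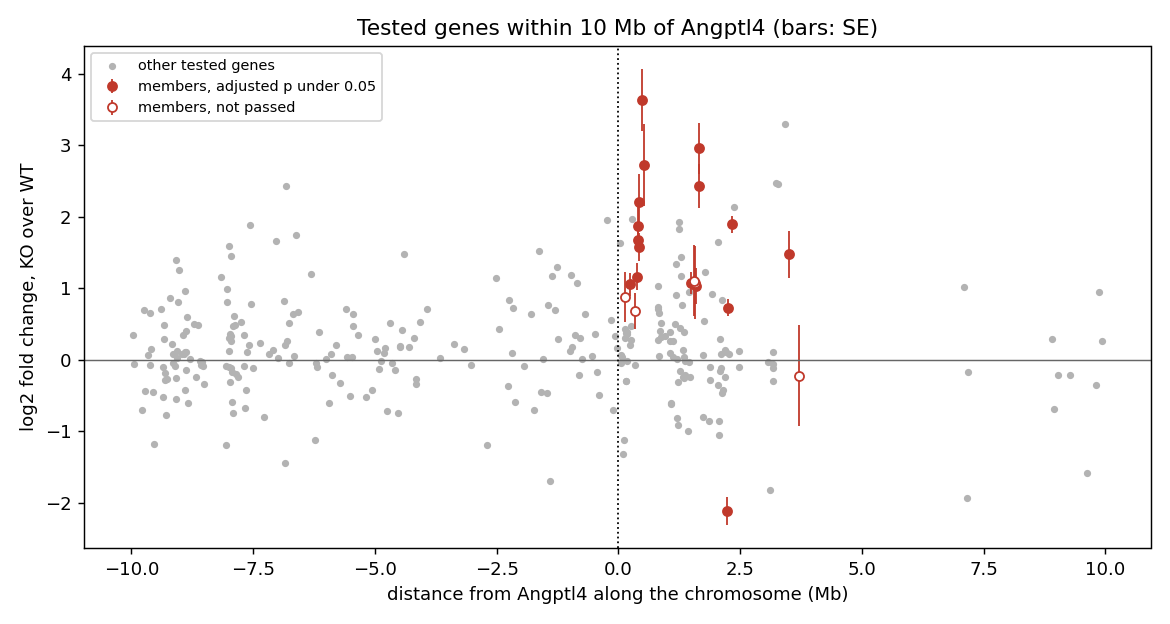
Log2 change of KO over WT against distance from Angptl4 along chromosome 17 for tested genes within 10 Mb. Red points are MHC and antigen processing genes (filled where the adjusted p is under 0.05, bars are standard errors), grey points other genes, and the dotted line is Angptl4. The red points lie between 0.146 and 3.704 Mb to the right, most above the grey points, whose median is 0.10.

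The partners of these genes were read from lists fixed by name. Of 10 peptide loading and endoplasmic reticulum genes, 2 were higher and 1 lower, shares no larger than the 20.4% of all tested genes in each direction: Calr, a chaperone of the loading complex, had 1606 and 3890 TPM in KO, against 1102, 1096 and 1006 TPM in WT (1.38 ± 0.36, adjusted p = 0.0305), Sec61b changed by 0.26 ± 0.08 (adjusted p = 0.0411) and Lnpep, a peptidase, by -0.58 ± 0.13 (adjusted p = 0.0191). In this list the order of the KO libraries was turned round. Hspa5, the main chaperone of the endoplasmic reticulum, had 586 TPM in KO1 and 3579 TPM in KO2, against 508, 466 and 451 TPM in WT (2.15 ± 0.68, adjusted p = 0.0541). Of 6 tested genes of the class II endosomal route, 4 were higher (66.7%) and 0 lower, beside 20.4% of all tested genes each way. The proteases Ctsb and Lgmn changed by 0.93 ± 0.10 and 0.67 ± 0.10 (adjusted p 0.00321 and 0.0064), and the costimulatory ligand Cd80 by 1.20 ± 0.26 (adjusted p = 0.0187). Ctss, the protease that removes Cd74 in antigen-presenting cells, did not exceed 0.38 TPM. Ctsl, a further protease of this list, lay below all WT libraries in both KO libraries but did not pass (-0.58 ± 0.19, adjusted p = 0.0576). It had 404 and 617 TPM in KO, against 797, 785 and 751 TPM in WT.

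Of 7 tested class I-like genes encoded outside the MHC, 1 was higher and 1 lower (14.3% each), below the 20.4% of all tested genes. Mr1, which presents vitamin B metabolites, had 14.03 and 11.4 TPM in KO and 7.38, 7.79 and 7.20 TPM in WT (0.79 ± 0.13, adjusted p = 0.00898). Procr, the endothelial protein C receptor with a class I-like fold, had 62.0 and 109 TPM in KO, against 428, 386 and 321 TPM in WT (-2.15 ± 0.28, adjusted p = 0.00484). Fcgrt, the neonatal Fc receptor, which pairs with B2m, had at most 1.11 TPM and did not pass (1.57 ± 0.50, adjusted p = 0.0537).

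Of 16 tested genes of the interferon gamma axis and MHC transcription, 3 were higher (18.8%) and 3 lower (18.8%), near the 20.4% of all tested genes each way, and the values that follow are those of single genes. The receptor chain Ifngr1 had 39.5 and 38.2 TPM in KO, against 22.96, 21.9 and 23.9 TPM in WT (0.78 ± 0.08, adjusted p = 0.00327). Stat2 and Irf9, subunits of the type I interferon factor ISGF3, changed by 0.88 ± 0.17 and 1.44 ± 0.36 (adjusted p 0.0128 and 0.0269). The NF-Y subunits Nfyb and Nfyc, which bind CCAAT, changed by -0.49 ± 0.10 and -0.39 ± 0.10 (adjusted p 0.0135 and 0.0322), and Creb1 by -0.36 ± 0.08 (adjusted p = 0.0188). Irf1, a transcription factor induced by interferon gamma, had 60.4 TPM in KO1 and 25.1 TPM in KO2, against 27.5, 23.7 and 27.6 TPM in WT (0.72 ± 0.36, adjusted p = 0.159), so KO1 alone lay above WT.

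Antigen-presenting cells carry much MHC RNA, so their markers were read in the same libraries. The list for macrophages, dendritic and Langerhans cells had 11 genes in the table, 9 of them under 1 TPM in every library, Ptprc, Adgre1 and Itgax among them. It summed to 67.8 and 57.8 TPM in KO, against 44.8, 50.8 and 42.1 TPM in WT, of which Cd68, a lysosomal protein also made by other cells, gave 65.4 and 56.3 TPM in KO and 41.2, 47.0 and 41.2 TPM in WT. Lyz2, which also exceeded 1 TPM, went the other way and did not pass (-3.45 ± 1.42, adjusted p = 0.106). It had 0 and 0.28 TPM in KO, against 2.14, 2.64 and 0.19 TPM in WT. The 3 B cell genes summed to 0 and 0.78 TPM in KO, against 0.26, 0.44 and 0.22 TPM in WT, and the 5 T cell genes to 0.38 and 0.24 TPM in KO, against 0.45, 0.51 and 0.24 TPM in WT.

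Fibroblast markers had a higher sum in KO, most of all in KO1, at a low level: 8 genes summed to 26.3 and 9.23 TPM in KO, against 2.54, 2.63 and 0.52 TPM in WT, and 4 of 7 tested were higher (57.1%, beside 20.4% of all tested genes: Col1a1, Dcn, Pdgfrb and Postn). Not every marker separated the groups: Col3a1 had 2.01 and 0.17 TPM in KO, against 0.19, 0.24 and 0.02 TPM in WT. Hair follicle stem cell markers summed to 90.0 and 88.9 TPM in KO, against 54.0, 55.4 and 55.6 TPM in WT, of which Sox9 gave 85.1 and 83.01 TPM in KO and 53.1, 54.3 and 54.6 TPM in WT. Of the 5, 4 were higher (80.0%, beside 20.4% of all tested genes), the other three of them at 3.5 TPM or less, and Cd34 did not pass. Endothelial markers summed to 1.49 and 1.39 TPM in KO, against 2.34, 2.13 and 2.20 TPM in WT, and melanocyte markers to 5.07 and 7.62 TPM in KO, against 5.75, 5.55 and 4.78 TPM in WT. The part of fibroblasts and of hair follicle cells in the levels of the MHC genes was not tested.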

How the data were processed

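The expected counts per gene that the authors deposited were estimated with RSEM 1.3.1 on GRCm38.p6, per the submitters' processing notes. RSEM divides reads that fit several genes by probability, and 32.1 to 34.0% of the counts per library were not whole. The TPM values, scaled by length and library by the authors, were used for levels, and the deposited FPKM values were not used. Aligner, strand setting and read length: not given in the sources used here.

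Rounded counts were tested with edgeR 4.0.16 under R 4.3.3 (filterByExpr by group, TMM factors 0.988 to 1.02, glmQLFit and glmQLFTest, two-sided, Benjamini-Hochberg over 12957 genes, threshold 0.05). The procedure was also run on simulated counts with the same spread in both groups. These libraries differ in spread between groups, so that run cannot check the test for them. Ratios of TPM were compared by exact permutation of libraries. Gene IDs were matched to RefSeq (17607), words of 50 bases to GENCODE transcripts (46 of the 49 genes). Promoter windows are RefSeq's. Protein sequences were not used here.

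The genes and lists were chosen with earlier results of these data known. Named are Angptl4, the regulators, B2m and Cd74, in each role group up to 4 genes with the smallest p and up to 2 with the highest TPM, and up to 3 of each pathway list by p. Named beside these, after their values were seen, were H2-Q1, H2-Q2, H2-Aa, H2-Ea, Erap1, Psmb10, Psmb5, Psmb6, Hspa5, Ctss, Ctsl, Irf1, Irf9, Nfyc, Creb1 and single markers of cell types. Some results are not reported here.

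The alternatives changed the scaling (DESeq2's size factors, or totals), the test (DESeq2 1.42.0, or limma 3.58.1 with voom and 1 or a separate spread per group), and further used no or a stricter count filter (mean 50), each library left out, the replicate number as a block, limma on log2 TPM with a pseudocount of 1 or 0.1 and with or without a minimum of 1 TPM, windows of 5 and 20 Mb and, for the ratios, CPM or TPM + 1. Summing close copies and placing genes by RefSeq were added with the data in view. The chi-square per degree of freedom was 107 between the KO libraries and 3.45 to 6.45 between WT libraries, so each library counts once. The replicate numbers are not given as a pairing in the labels.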

Additional observations from a re-analysis of the deposited data

How the results depend on the processing

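The 22 genes called higher ranged from 16 with the replicate block to 24 by DESeq2 (15 to 18 with 1 WT library left out). The number of all genes called, 5286, moved to 3192 with a separate spread per group and to 1598 with the replicate number as a block, and from 1957 to 8068 with 1 library left out. With the block, the calls of H2-T22 and H2-DMb1 were lost (adjusted p 0.0553 and 0.0611), as were those of H2-M3, H2-Eb1, Rfx5 and Rfxank. The genes called outside the window, 4, became 2 with a separate spread, 2 with the replicate block, 2 on log2(TPM + 1) with no minimum, and 2 to 9 with 1 library left out. The genes called lower, 1, ranged from 1 to 3 with 1 library left out. Angptl4 changed by -2.51 with a separate spread (adjusted p = 0.127). With 1 library left out, signs turned for H2-M2 (-2.15 to 0.59), Erap1 (-0.15 to 0.32), Psmb10 (-0.51 to 0.70) and Rfxap (-0.0688 to 0.19), each between the fits without KO1 and without KO2. The cause of these changes was not tested. Of 576 values of single genes under alternatives, 529 kept their direction and side of the threshold, 31 lost and 12 gained a call, and 4 reversed. Same-numbered libraries did not deviate together (correlations 0.00714 and 0.0676 over 2 numbers). With 2 KO libraries that differ far more than the WT libraries do, these correlations cannot decide whether the numbers pair the libraries. In fits without 1 KO library, the other KO library was taken to vary as WT libraries do, so their p-values do not measure the KO spread. These fits are among the 16 alternatives. Low counts limit H2-Aa, H2-Ea, Ciita and the other untested genes, and shared sequence limits the split among close copies.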
